A study of Mus musculus with 8 samples.

Results

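Gene expression was compared between 2 knockdown lines of mouse embryonic stem cells, one carrying a short hairpin against Top1 (shTop1) and one carrying a short hairpin against p53 (shp53). All 8 arrays of the study entered the comparison, 4 labelled shTop1 and 4 labelled shp53, with the culture condition as a blocking factor. Of 45101 probe sets, the 34958 with 1 gene symbol were considered, and 26118 of these, standing for 14267 genes, were bright enough to be tested.

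Every sample came from a 129X1 x 129S1 stem cell line under standard growth conditions, and every sample held knockdown and mock material at a ratio of 1:4. In the mixes, shTop1 or shp53 cells and mock cells spent 4 days in separate dishes, and RNA from them was combined afterwards. In the cocultures, the same kinds of cells shared a dish for 4 days before RNA was taken. Each knockdown thus had 2 mixes and 2 cocultures, which the labels call biological replicates, and no group held knockdown RNA alone or mock RNA alone. The labels do not state the hairpin sequences or whether each knockdown was 1 clone, and they do not say that replicates came from separate thaws or passages, so the p-values measure the spread among these samples. The study set cocultures against mixes to find what is specific to cells living together, and the comparison here asks instead where the knockdowns differed from each other in both settings.

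Top1 encodes the nuclear type I topoisomerase, which relieves torsional stress in DNA during transcription and replication by nicking and resealing one strand. p53 is the transcription factor that responds to DNA damage and other stress by inducing genes for cell cycle arrest, apoptosis, DNA repair and metabolism, and embryonic stem cells express it at a high level. A knockdown of either gene could therefore be read through the targeted transcript itself, through the p53 target genes, or through genes that depend on topoisomerase activity. The level of the p53 transcript was not analysed here, so the shp53 labels were not checked on their target.

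In total, 0 of 26118 probe sets differed between the knockdowns at a limma adjusted p under 0.05 (Benjamini-Hochberg), which is 0% called, in both conditions together, in the mixes and in the cocultures. The smallest adjusted p over both conditions was 0.345, for a probe set of Tnks that is not the brightest of its gene. At an unadjusted p under 0.05, 1246 probe sets (4.77%) differed over both conditions, 673 higher (2.58%) and 573 lower (2.19%) in the shTop1 arrays. The same count was 1086 (4.16%) in the mixes and 1387 (5.31%) in the cocultures, and the last became 2227 when shTop1 coculture replicate 2 was left out. The split between directions depended on the scaling. Of the probe sets with an unadjusted p under 0.05, 46% were lower in the shTop1 arrays after quantile normalization. That share was 33.4% after median centring, and 65.3% when the deposited scaling was kept as it was. Taking each gene by its brightest probe set, 604 of 14267 genes (4.23%) had an unadjusted p under 0.05, 305 higher (2.14%) and 299 lower (2.1%), and 51.3% of all genes lay below 0 (33.6% with median centring). In 298 genes (2.09%) the 4 shTop1 arrays did not overlap the 4 shp53 arrays, 145 with all shTop1 arrays above (1.02%) and 153 with all below (1.07%).

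The arrays of both knockdowns were alike in overall signal. Mean signal was 813 to 896 on the shTop1 arrays and 812 to 862 on the shp53 arrays, and 22.6% to 25.6% and 21.1% to 24.6% of values lay under 16. The log2 ratio of the 3' to the 5' Actb probe set, a sign of RNA integrity, was 0.463 to 0.677 and 0.508 to 0.672. On the second principal component shTop1 coculture replicate 1 stood at -49.1. The other shTop1 arrays lay between -1.74 and 5.49, and the shp53 arrays between -2.04 and 17.6. On the first component shTop1 coculture replicate 2 stood at 36.8. There the other shTop1 arrays lay between -16.2 and -7.52, and the shp53 arrays between -30.9 and 21.9. All 10 embryonic stem cell markers passed the filter, among them Pou5f1 and Sox2, and their summed signal was 117000 to 123000 with shTop1 and 114000 to 119000 with shp53. Of 18 fibroblast markers, 10 passed the filter, 7 of them below 0 with a median of -0.115, and their summed signal was 1330 to 1550 with shTop1 and 1530 to 1640 with shp53. That sum includes Tagln and Acta2. The median ran from -0.20 without shTop1 mix replicate 2 to -0.03 without shTop1 mix replicate 1, and was -0.177 with the authors' scaling. Postn, Dcn, Lum, Twist2, Col3a1, Col6a1 and S100a4 were below the filter. Besides Tagln and Acta2, those that passed it were Pdgfrb (mean signal 249), Col5a1 (199), Thy1 (190), Cxcl12 (113), Col6a2 (79.3), Col1a2 (76.2), Col1a1 (23.1) and Prrx1. Across autosomes, the median difference per chromosome lay between -0.016 and 0.009.

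Top1 served as a check of the shTop1 labels. Its brightest probe set read 5110 and 5320 in the shTop1 mixes, 5280 and 5280 in the shTop1 cocultures, 5460 and 5680 in the shp53 mixes, and 5570 and 5890 in the shp53 cocultures. All 4 shTop1 arrays lay below all 4 shp53 arrays. The mean signal was 5250 ± 93.3 with shTop1 and 5650 ± 183 with shp53 (SD, n = 4 each). The log2 difference was -0.11 (SE 0.066), a ratio of 0.929, with a 95% interval of -0.26 to 0.05. The limma fit across all probe sets gave an adjusted p of 0.998. An exact permutation test that exchanged the knockdown label within each condition gave a two-sided p of 0.0556, the smallest that its 36 exchanges allow, so this design could not reach 0.05. In the mixes the difference was -0.10 and in the cocultures -0.12. The remaining Top1 probe sets were dimmer, with mean signals of 214 and 23.6, and had differences of 0.15 and 0.39, opposite in sign to the brightest. With the mean of the 3 probe sets the Top1 difference turned to 0.15.

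The 1:4 ratio limits what such samples can show. Knockdown RNA made up 20% of a mix and mock RNA 80%. A transcript lost completely from the knockdown cells, and equal elsewhere, would read 0.8 times the level of the undepleted mix, a log2 difference of -0.32. In the mixes alone the Top1 difference had a 95% interval of -0.35 to 0.16, which includes that size. The share of knockdown cells in the cocultures after 4 days was not given, so no such size can be stated for them.

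**Figure D1:**
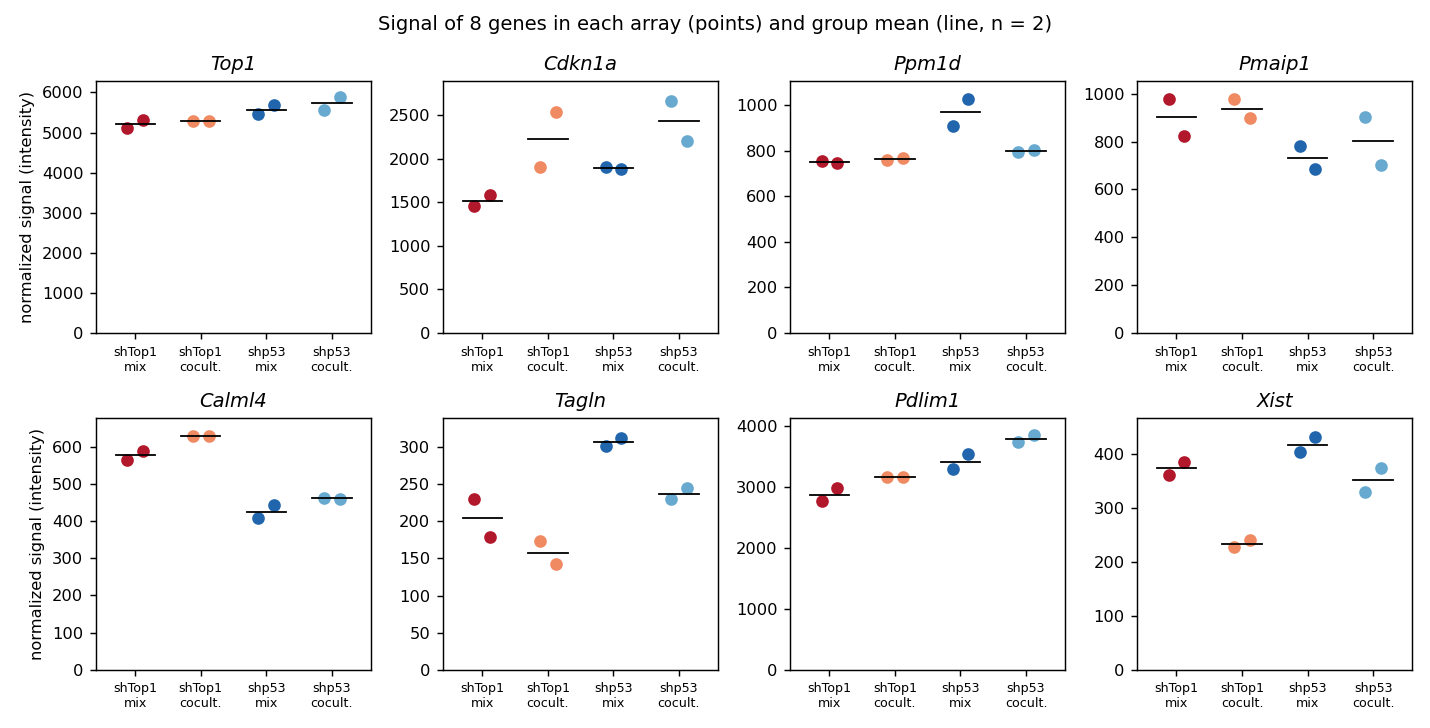
Normalized signal (linear axis from 0) of 8 genes in each of the 8 arrays, as points, with the mean of the 2 arrays of each group as a line. Top1, Ppm1d, Tagln and Pdlim1 read lower in all 4 shTop1 arrays and Calml4 read higher in all 4 (563 to 628 against 407 to 462), while Cdkn1a and Pmaip1 overlapped between the knockdowns.

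The genes that p53 controls were examined next, since only the shp53 samples carried a hairpin against their regulator. Cdkn1a encodes p21, the cyclin-dependent kinase inhibitor that carries much of the arrest response to p53, and it is a textbook p53 target. The stretch upstream of one of its start sites in RefSeq (GRCm38.p6, chr17:29090871-29090978, plus strand) is shown because it holds a pair of p53 core motifs in direct view of the start, written in capitals, beginning 48 bases before it.

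Cdkn1a: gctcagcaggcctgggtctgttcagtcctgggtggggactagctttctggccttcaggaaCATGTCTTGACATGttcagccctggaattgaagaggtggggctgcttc

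The motif searched was CATGNNNNNNCATG, which reads the same on both strands. It was present in the 250 bases before the start in 161 of 32851 promoters (0.49%) and in 1 of 46 promoters of the p53 target genes (2.17%), of which 35 of 45 genes had a promoter entry. A match describes the letters and no more.

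The signal of Cdkn1a was 1460 and 1580 in the shTop1 mixes, 1910 and 2540 in the shTop1 cocultures, 1910 and 1880 in the shp53 mixes, and 2670 and 2210 in the shp53 cocultures. In the mixes both shTop1 arrays lay below both shp53 arrays, and in the cocultures they overlapped. The log2 difference was -0.23 (95% interval -0.51 to 0.05, limma adjusted p = 0.998). Its second probe set gave the same size, -0.23. The value was -0.33 without shTop1 coculture replicate 2 and -0.16 without shTop1 coculture replicate 1.

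Of 19 genes for arrest and feedback to p53, all 19 were tested, 0 passed, and 13 lay below 0. Their median was -0.024, which became 0.049 with median centring and 8e-04 without shTop1 coculture replicate 1, beside a median of -0.0036 over all genes. The list was 0.021 in the mixes and -0.071 in the cocultures. Ppm1d, the phosphatase that switches p53 signalling off, read 754 and 748 in the shTop1 mixes, 759 and 768 in the shTop1 cocultures, 908 and 1030 in the shp53 mixes, and 796 and 806 in the shp53 cocultures. All shTop1 arrays lay below all shp53 arrays, with a difference of -0.21 (95% interval -0.43 to -0.0013, limma adjusted p = 0.998). Most of the distance was in the mixes, at -0.36, against -0.07 in the cocultures, and the interaction had a limma adjusted p of 1. The second Ppm1d probe set gave 0.16. Mdm2, the ubiquitin ligase that degrades p53, differed by -0.07 (95% interval -0.27 to 0.14), and by 0.011 with median centring. Ccng1, Zmat3, Rps27l and Btg2, further direct targets, lay between -0.0243 and 0.0245.

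Among 10 tested genes of p53-driven apoptosis, 0 passed and 6 lay above 0, with a median of 0.003, which was -0.003 with the authors' scaling and -0.007 without shTop1 coculture replicate 2. Pmaip1 encodes Noxa, a BH3-only activator of mitochondrial cell death. It read 979 and 825 in the shTop1 mixes, 978 and 897 in the shTop1 cocultures, 783 and 684 in the shp53 mixes, and 903 and 703 in the shp53 cocultures. The shTop1 arrays were the higher ones within the mixes and overlapped the shp53 arrays in the cocultures, and the difference was 0.26 (95% interval -0.0022 to 0.52, limma adjusted p = 0.998). Bbc3, which encodes the related activator Puma, differed by -0.0018 (95% interval -0.25 to 0.24), and Apaf1, the scaffold of the apoptosome, by -0.007. Trp73, the p53 relative, differed by -0.24 in the mixes and 0.62 in the cocultures, with an interaction at a limma adjusted p of 0.964.

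Genes of p53-dependent DNA repair and metabolism had a median of -0.086, with 9 of 12 tested members below 0 and 0 called. The median stayed below 0 with median centring (-0.03, with 7 of 12 below) and with each array left out (-0.11 to -0.03). Ercc5, a nuclease of nucleotide excision repair, read 1100 and 1130 in the shTop1 mixes, 1220 and 1210 in the shTop1 cocultures, 1210 and 1200 in the shp53 mixes, and 1340 and 1390 in the shp53 cocultures. Within each condition the shTop1 arrays lay below the shp53 arrays, and the difference was -0.14 (95% interval -0.29 to 0.01, limma adjusted p = 0.998). Cpt1c, a carnitine palmitoyltransferase relative, differed by -0.20, and by -0.0995 without shTop1 coculture replicate 1. The damage sensor Xpc differed by -0.12, and by -0.0664 without shp53 mix replicate 2. Ddb2, which recognises ultraviolet lesions, differed by -0.0042. The largest positive value of the group was 0.20 for Sco2, an assembly factor of cytochrome oxidase.

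These intervals can be set against the size that the 1:4 ratio allows. A p53 target lost entirely from the shp53 cells of a mix, and unaltered in the shTop1 cells, would differ by 0.32. In the mixes alone, the whole 95% interval lay under that size for 10 of 19 arrest and feedback genes, 5 of 10 apoptosis genes and 6 of 12 repair and metabolism genes. For the others a difference of that size lay within or below the interval.

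Topoisomerases and the enzymes that repair trapped topoisomerase complexes gave 19 tested genes, 0 called, 10 above and 9 below 0. The median was 0.015, and -0.035 without shTop1 coculture replicate 1. Top1mt, the mitochondrial paralogue of Top1, read 587 and 516 in the shTop1 mixes, 589 and 556 in the shTop1 cocultures, 688 and 565 in the shp53 mixes, and 651 and 734 in the shp53 cocultures. The groups overlapped slightly, and the difference was -0.22 (95% interval -0.45 to 0.0072, limma adjusted p = 0.998). Wrn, a RecQ helicase, had a difference of -0.28, and its second probe set gave -0.29. Ercc1, part of the nuclease that can excise trapped complexes, had a difference of -0.26, which became 0.16 with the mean of its probe sets and -0.16 without shTop1 mix replicate 1. Top2b, the type II enzyme of non-dividing cells, had a difference of 0.20 (95% interval -0.14 to 0.53), and 0.31 without shTop1 coculture replicate 2 or without shp53 coculture replicate 1. Top2a, its proliferation-linked counterpart, had -0.03 (95% interval -0.20 to 0.13). The repair enzymes Tdp1, Tdp2 and Parp1 lay between -0.0151 and 0.0649.

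Long genes are known to need topoisomerase activity for full transcription. Of 40 genes of very long span, 25 were tested, 0 passed, 16 lay above 0 and 9 below, and their median was 0.032, against -0.0036 over all genes. Cntnap2, a neurexin-family adhesion gene, differed by 0.16, the macrodomain gene Macrod2 by 0.12, and the forkhead factor Foxp1 by -0.11. In the DNA damage signalling list, 0 of 19 genes passed and 13 lay below 0. Its median was -0.034, but 0.035 with median centring and 6e-04 without shTop1 coculture replicate 1. The kinase genes Atm and Chek1 differed by -0.18 and -0.10, and the Fanconi anaemia gene Fanca by -0.17.

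**Figure D2:**
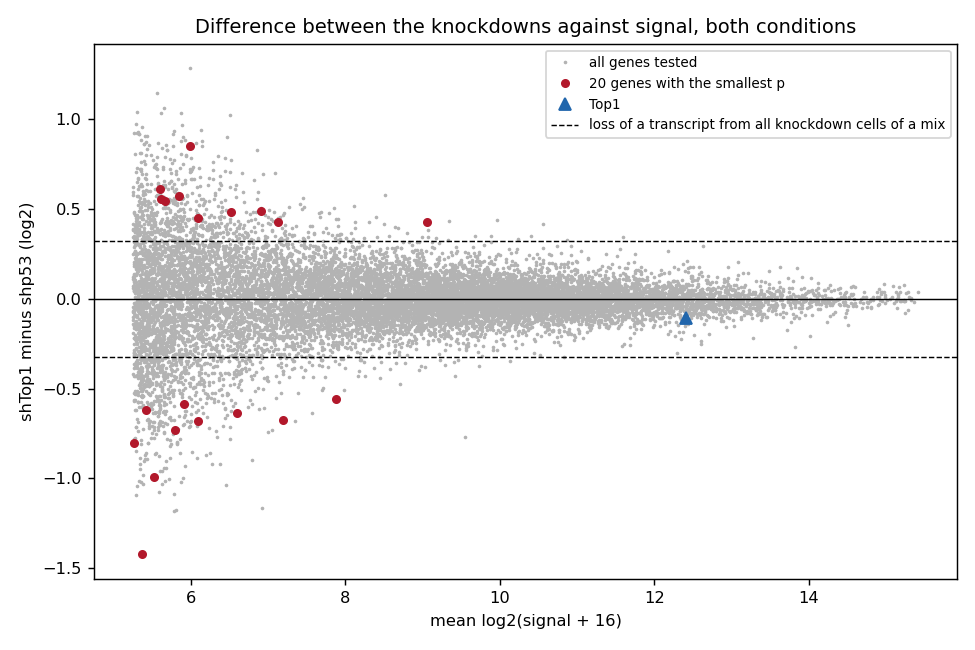
Log2 difference between the knockdowns (shTop1 minus shp53, both conditions, vertical axis) against mean log2(signal + 16) for each of the 14267 genes tested, 1 point per gene. The 20 genes with the smallest p (red) sit almost all at low signal, where the spread of all genes is widest, and Top1 (triangle, -0.11) lies inside the dashed lines at 0.32 and -0.32.

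The 20 genes with the smallest p in their brightest probe set, 10 in each direction, had adjusted limma p-values from 0.620 to 0.679, so none passed. In all 20 the 4 shTop1 arrays did not overlap the 4 shp53 arrays, which held for 2.09% of all genes. The 20 were picked by p on these same arrays, so the lack of overlap supports nothing. The mean signals of these 20 genes ran from 22.3 to 516, and 15 of them lay under 84.4, in the dimmest range of tested genes. Only 4 had a further tested probe set, and it pointed the same way in 2. These were Prkch, at 0.012 there against 0.49, and A930006K02Rik, at 0.15 against 0.61.

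Calml4, a calmodulin-like protein, was the brightest of them. It read 563 and 589 in the shTop1 mixes, 628 and 627 in the shTop1 cocultures, 407 and 443 in the shp53 mixes, and 462 and 460 in the shp53 cocultures. In each condition the shTop1 arrays lay above the shp53 arrays, and the mean was 602 ± 31.4 against 443 ± 25.2 (SD, n = 4 each). The difference was 0.43 (95% interval 0.27 to 0.59, limma adjusted p = 0.620), and 0.43 in the mixes and in the cocultures taken alone. Without each array in turn it lay between 0.41 and 0.45. Calml4 was picked by p on these same arrays, so its likeness across conditions and without each array supports nothing. The other genes higher with shTop1 were dimmer. They included Prkch, a protein kinase C isoform (0.49), Mboat4, which encodes the acyltransferase that modifies ghrelin (0.57), Slit3, a secreted guidance cue (0.45), and Prtn3, a neutrophil serine protease (0.85). The remaining names were 4930526I15Rik (0.43), A930006K02Rik (0.61), Tmem35a (0.56), Ubtfl1 (0.55) and Ap3b2 (0.48). Ap3b2, a subunit of a vesicle adaptor complex, had a further probe set at -0.42.

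Tagln, which encodes the actin-binding protein transgelin, was the brightest of the genes lower with shTop1. It read 230 and 179 in the shTop1 mixes, 174 and 142 in the shTop1 cocultures, 301 and 312 in the shp53 mixes, and 230 and 245 in the shp53 cocultures. The highest shTop1 array and the lowest shp53 array both stood at 230 after rounding, and within each condition the shTop1 arrays lay below the shp53 arrays. The difference was -0.56 (95% interval -0.80 to -0.31, limma adjusted p = 0.679), and it was -0.56 in the mixes and -0.55 in the cocultures. Tagln and Acta2 are also fibroblast markers. The other 8 tested fibroblast markers had a summed signal of 830 to 1130 with shTop1 and 839 to 1130 with shp53, with 3 above and 5 below 0. The part of such cells in the Tagln value was not tested, and in bulk RNA fewer cells of a type and less RNA per cell cannot be told apart.

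Thsd7a, a transmembrane protein with thrombospondin repeats, had the largest negative value of these 20. It read 10.9 and 7.71 in the shTop1 mixes, 7.99 and 10.7 in the shTop1 cocultures, 73.5 and 31.7 in the shp53 mixes, and 58.0 and 50.9 in the shp53 cocultures. All shTop1 arrays were under the signal of 16 that was added before taking logs. The difference was -1.42 (95% interval -1.87 to -0.975, limma adjusted p = 0.620), and its size depended on that addition, running from -2.35 with 1 added to -0.67 with 64. The others were Lypd6b (-0.99), the serotonin receptor Htr6 (-0.62), the adenylyl cyclase Adcy5 (-0.63), the tetraspanin Tspan32 (-0.68), the cytokine Il34 (-0.73), the ubiquitin ligase adaptor Fbxo44 (-0.68), Gm20346 (-0.80) and BB283400 (-0.58). Thsd7a, Lypd6b, Htr6 and Gm20346 had mean signals of 9.32 to 18.6 with shTop1, under the filter at 22.1. They passed it only through their signal with shp53. Of 3 further Adcy5 probe sets only 1 was below 0, and the mean of its probe sets gave 0.07.

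**Figure D3:**
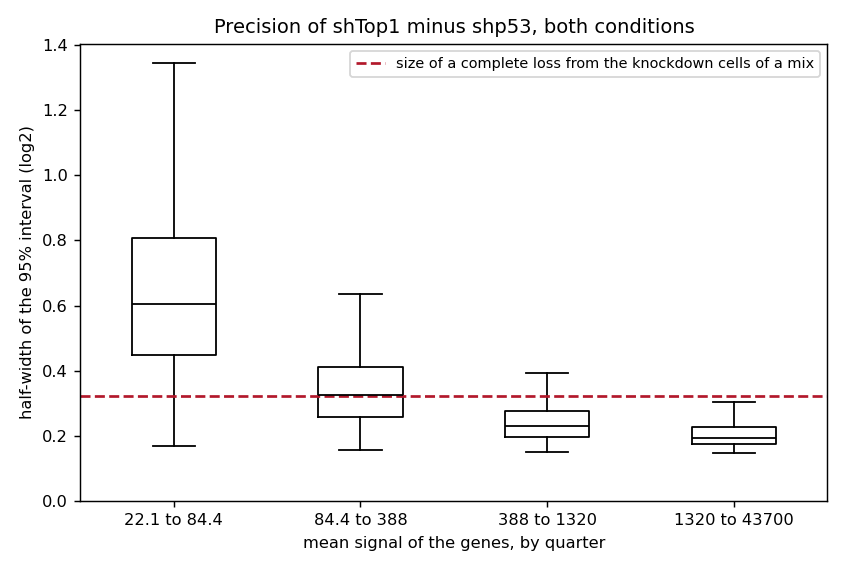
Distance from the estimate to either end of its 95% interval (log2) for shTop1 minus shp53, by range of mean signal, with 3567 or 3566 genes in each box. Boxes show the interquartile range with the median as a line, whiskers the spread without outlying genes, and the dashed line at 0.32 marks the size of a complete loss from the knockdown cells of a mix; the medians, from arrays of both conditions, are 0.60, 0.33, 0.23 and 0.19 from the dimmest to the brightest range.

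How small a difference the 8 arrays could resolve depended on the signal. Among the dimmest genes (signal 22.1 to 84.4) the 95% interval reached a median of 0.60 to either side of the estimate, and 6.84% of genes had an interval narrower than 0.32 to either side. In the next ranges (84.4 to 388, 388 to 1320 and 1320 to 43700) those shares were 49%, 87.7% and 96.2%. In the mixes alone, to which the size of 0.32 applies, they were 1.29%, 10.9%, 37.6% and 62.2% from the dimmest to the brightest range. Estimates beyond 0.32 in either direction were common at low signal and rare at high signal, with 1157 genes (32.4%), 233 (6.53%), 27 (0.757%) and 5 (0.14%). The 5 bright ones were Mettl14 (0.41), a subunit of the RNA adenosine methyltransferase, Gatd3a (0.35), AY036118 (0.34), Dctn6 (0.32), a dynactin subunit, and Fnip1 (-0.32), a folliculin partner in nutrient sensing. All 5 were singled out once their values were known. The share with an unadjusted limma p under 0.05 went from 8.47% in the dimmest range to 0.757% in the brightest, and with trended and robust variances from 5.52% to 3.31%, where again 0 probe sets passed the adjusted test.

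The mixes and the cocultures share no array, so the differences in each were estimated from separate arrays. Across 14267 genes the difference in the mixes and that in the cocultures correlated with Pearson r = 0.0224 and Spearman rho = 0.0533, and 7510 genes (52.6%) had the same sign. Genes are not independent replicates, and each pair of values shares its probe set. The correlation was 0.0104 among the dimmest genes, 0.0229 and 0.101 in the middle ranges and 0.197 among the brightest, where 55.5% had the same sign. An unadjusted limma p under 0.05 in each condition was found for 86 genes, of which 47 had the same direction (23 higher and 24 lower) and 39 opposite directions.

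**Figure D4:**
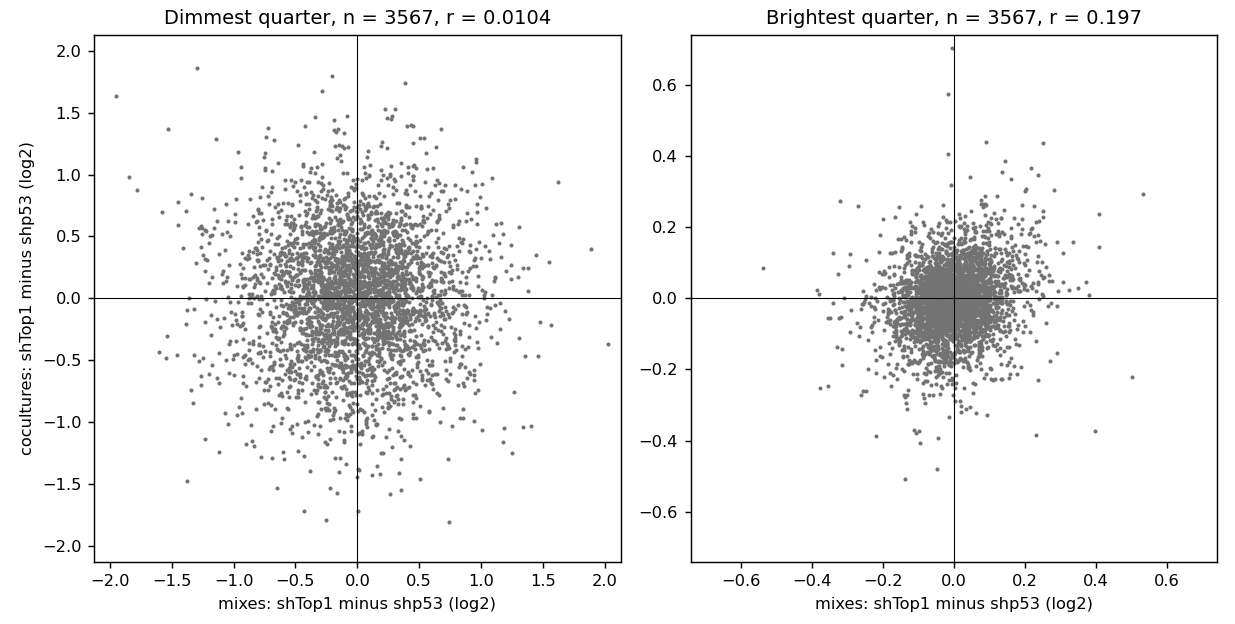
Log2 difference between the knockdowns in the cocultures (vertical axis) against that in the mixes (horizontal axis), 1 point per gene, for the dimmest and the brightest 3567 genes. The dimmest genes form a round cloud (r = 0.0104) and the brightest a narrower cloud with a slight tilt (r = 0.197); the axes of the panels differ in range.

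Among the 47 genes with the same direction in both conditions, the largest values above 0 were Slc25a45, a mitochondrial carrier (1.28), Tmem163, a zinc transporter of vesicles (1.04), Prtn3 (0.85), Nptx1, a neuronal pentraxin (0.81), and Slc4a5, a bicarbonate cotransporter (0.78). The largest below 0 were Thsd7a (-1.42), Lypd6b (-0.99), the cytokine Il25 (-0.92), the noncoding RNA Dalir (-0.86) and Gm20346 (-0.80). All of these below 0 had mean signals of 9.32 to 17.5 with shTop1, under the filter at 22.1. They passed it only through their signal with shp53. Tmem163 (12.2 with shp53) and Nptx1 (15.3) passed it only through their signal with shTop1. Il25 and Dalir overlapped between the knockdowns. Slc25a45 read 98.8 and 81.1 in the shTop1 mixes, 80.0 and 73.8 in the shTop1 cocultures, 25.7 and 12.2 in the shp53 mixes, and 52.7 and 18.0 in the shp53 cocultures. The shTop1 arrays were all higher, and the shp53 arrays varied several-fold among themselves. Of the 9 among these 47 genes with a further tested probe set, it had the same sign in 4. Over all genes with a further probe set the share was 52.6% (3507 of 6673), and among genes with an unadjusted p under 0.05 it was 51.5% (104 of 202).

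Whether the difference between the knockdowns depended on the culture condition was tested with the interaction of the 4 group means. Here too 0 of 26118 probe sets passed, and 1230 (4.71%) had an unadjusted limma p under 0.05. Taking each gene by its brightest probe set, the 5 genes with the smallest p had an adjusted p of 0.416 each. Batf, a transcription factor of lymphoid cells, read 5.76 and 14.5 in the shTop1 mixes and 66.0 and 105 in the shp53 mixes. In the cocultures it read 41.8 and 62.1 with shTop1 and 5.15 and 6.27 with shp53, so the order of the knockdowns was opposite in the 2 settings. The interaction was 3.58 for Batf, 3.15 for the Notch target Hes7, 2.00 for Gm3363, -1.90 for the adhesion molecule Dscaml1 and -1.75 for 1700001P01Rik. All 5 had mean signals between 22.7 and 31.1, close to the filter at 22.1.

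**Figure D5:**
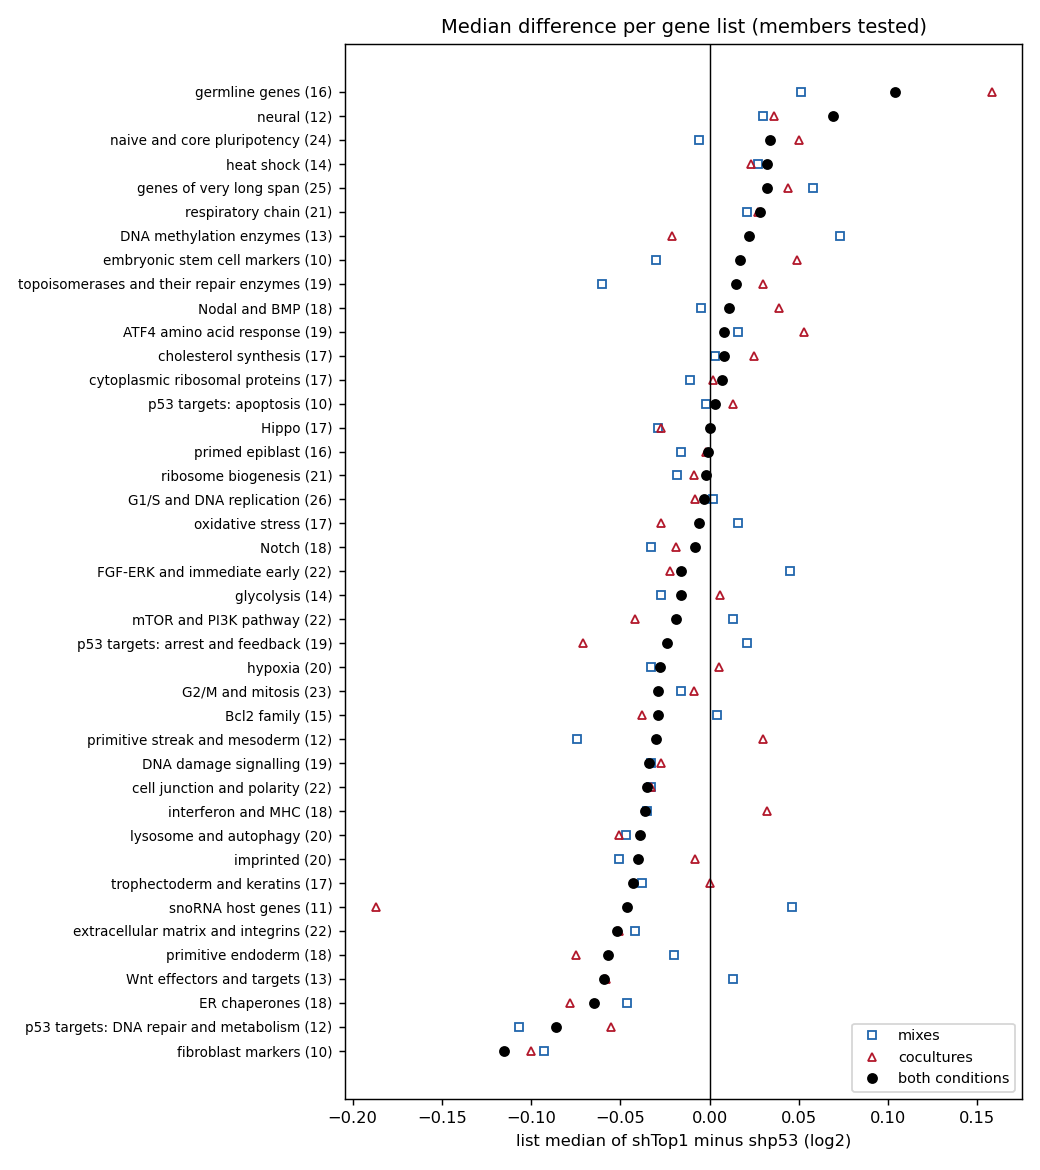
Median log2 difference (shTop1 minus shp53) of each gene list with at least 10 members tested, over both conditions (filled circles), in the mixes (squares) and in the cocultures (triangles), with the number of tested members in brackets. The medians over both conditions lie between -0.115 (fibroblast markers) and 0.104 (germline genes), the order of mixes and cocultures varies from list to list, and median centring turns the sign of 23 of 45 list medians.

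Pathways and cell states were described with 45 lists holding 694 distinct tested genes. Of these 0 passed, and 16 (2.31%) had an unadjusted limma p under 0.05, 8 higher and 8 lower, beside 4.23% of all genes tested. With trended and robust variances the shares were 4.47% of the list genes (31) and 4.37% of all genes. In all, 16 lists had a median above 0 and 28 below. Median centring, which shifted the median of all genes from -0.0036 to 0.0515, turned the sign of 23 lists and left 40 above 0 and 5 below. With each array left out in turn, 20 of 45 list medians kept 1 sign. In 23 lists the mixes and the cocultures had medians of the same sign.

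Pluripotency genes gave small values. Of 24 naive and core pluripotency genes, 16 lay above 0, with a median of 0.034. With median centring 23 of 24 lay above 0 with a median of 0.101, and without shp53 coculture replicate 1 the median was 0.014. Klf5, a factor of naive self-renewal, differed by 0.13, with all shTop1 arrays above all shp53 arrays (limma adjusted p = 0.998), and Zfp42, also called Rex1, by 0.16. The primed epiblast list had a median of -0.001. The list of the 2-cell-like state, a rare fluctuation toward an early embryo programme, held 18 genes, of which only 6 were tested. All 6 lay above 0, also with median centring, with a median of 0.35, and 0 passed. None of the 6 had a 95% interval narrower than 0.32 to either side. Usp17la, a deubiquitinase of that programme, read 402 and 296 in the shTop1 mixes, 426 and 297 in the shTop1 cocultures, 259 and 294 in the shp53 mixes, and 240 and 236 in the shp53 cocultures. All shTop1 arrays lay above all shp53 arrays, the nearest by 2 units of signal against a spread of over 100 within shTop1. The difference was 0.43 (95% interval 0.08 to 0.78, limma adjusted p = 0.997). Duxf3, which stands for the factor that can start that programme, differed by 0.40 with a 95% interval of -0.12 to 0.92, and Zfp352 by 0.35 with one of -0.37 to 1.07.

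Germline genes, which embryonic stem cells keep largely silent, lay above 0 in 13 of 16 tested, with a median of 0.10, and in 15 of 16 with median centring. The median was 0.07 to 0.15 with each array left out, and that of the 2-cell-like list 0.19 to 0.38. Taf7l, a germ cell variant of a general transcription factor subunit, read 173 and 186 in the shTop1 mixes, 184 and 186 in the shTop1 cocultures, 131 and 123 in the shp53 mixes, and 162 and 152 in the shp53 cocultures. The shTop1 arrays were all higher, and the difference was 0.33 (95% interval 0.14 to 0.53, limma adjusted p = 0.918). Slc25a31, a germ cell adenine nucleotide carrier, differed by 0.32 (95% interval -0.02 to 0.66).

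Primitive endoderm genes lay below 0 in 15 of 18 tested, with a median of -0.057, which turned to 0.025 with median centring (7 of 18 below). Their summed signal was 86300 to 95400 with shTop1 and 89200 to 103000 with shp53. Foxa2, an endoderm transcription factor, read 282 and 251 in the shTop1 mixes, 310 and 338 in the shTop1 cocultures, 404 and 281 in the shp53 mixes, and 395 and 423 in the shp53 cocultures. The groups overlapped, and the difference was -0.32 (95% interval -0.61 to -0.04, limma adjusted p = 0.997). Pdgfra, a receptor of primitive endoderm, had a difference of -0.20, and 0.0092 with the mean of its probe sets.

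Several further lists lay mostly below 0 by small amounts, and for each of them the balance moved with median centring. ER chaperones were below 0 in 16 of 18 tested (median -0.065, against 9 of 18 with median centring). Extracellular matrix and integrin genes were below 0 in 18 of 22 (7 of 22 with median centring), cell junction genes in 18 of 22 (6 of 22) and lysosome and autophagy genes in 16 of 20 (6 of 20). Named by the smallest p, the ER co-chaperone Dnajc3 differed by -0.20, which turned to 0.06 with the mean of its probe sets, and the ER chaperone Hspa5, also known as BiP, by -0.13. The basement membrane proteoglycan Hspg2 differed by -0.15 and the integrin subunit Itga3 by -0.15. None of the members of these 4 lists had an unadjusted limma p under 0.05.

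In signalling lists the values were scattered. Id3, a direct target of BMP signalling, read 242 and 242 in the shTop1 mixes, 247 and 168 in the shTop1 cocultures, 138 and 174 in the shp53 mixes, and 135 and 178 in the shp53 cocultures. Only shTop1 coculture replicate 2 fell within the shp53 range, and the difference was 0.48 (95% interval 0.12 to 0.84, limma adjusted p = 0.997). Its ligand gene Bmp4 differed by 0.33 (95% interval -0.02 to 0.69), and the list median was 0.011. Among targets of the Hippo effector YAP, Ankrd1 differed by -0.23 (95% interval -0.42 to -0.05, limma adjusted p = 0.997) and Ccn2 by -0.18 (95% interval -0.38 to 0.01). The Hippo list as a whole had 8 genes above and 9 below 0. Hey2, a Notch target, differed by 0.55 at a dim signal, with the groups overlapping. The stress genes Trib3 and Nupr1, both induced by ATF4, differed by 0.26 (0.16 without shp53 mix replicate 1) and 0.21, while their list had 11 genes above and 8 below 0.

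Of 20 imprinted genes tested, 0 passed and 3 had an unadjusted limma p under 0.05, a rule that 4.23% of all genes met. Kcnq1ot1, the antisense RNA of the Kcnq1 domain, read 258 and 299 in the shTop1 mixes, 155 and 150 in the shTop1 cocultures, 308 and 338 in the shp53 mixes, and 247 and 223 in the shp53 cocultures. Within each condition shTop1 was lower, and the difference was -0.39 (95% interval -0.64 to -0.13, limma adjusted p = 0.943). All 3 further probe sets were also below 0, from -0.38 to -0.02. Rian, a noncoding RNA of the Dlk1 and Meg3 domain, read 4390 and 4270 in the shTop1 mixes, 4340 and 5170 in the shTop1 cocultures, 5130 and 5990 in the shp53 mixes, and 5680 and 5560 in the shp53 cocultures. Only shTop1 coculture replicate 2 reached into the shp53 range. The difference was -0.30 (95% interval -0.52 to -0.08, limma adjusted p = 0.984), and its 3 further probe sets lay between -0.21 and -0.14. Meg3, from the same domain, differed by -0.24 (95% interval -0.51 to 0.03). Cdkn1c, a cyclin-dependent kinase inhibitor of the Kcnq1 domain, differed by 0.24, with the opposite sign to Kcnq1ot1.

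Among sex-linked genes, Xist, the noncoding RNA of X inactivation, read 361 and 385 in the shTop1 mixes, 227 and 240 in the shTop1 cocultures, 403 and 430 in the shp53 mixes, and 329 and 373 in the shp53 cocultures. Each condition had shTop1 lower, by -0.15 in the mixes and -0.55 in the cocultures, and the interaction had a limma adjusted p of 1. Over both conditions the difference was -0.35 (95% interval -0.61 to -0.10, limma adjusted p = 0.984), and its second probe set gave -0.31. The Y-linked genes Eif2s3y and Uty differed by 0.04 and 0.03. The sole remaining members with an unadjusted limma p under 0.05 were H3f3b, which encodes the replacement histone H3.3 (-0.48), the sulfiredoxin gene Srxn1 (0.21) and the progenitor cell marker Cd34 (0.55, at signals of 35.3 to 76.9).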

How the data were processed

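Total RNA was hybridised to 8 Affymetrix arrays, per the labels. The authors deposited signal intensities on a linear scale for every probe set. Which software computed them was not given in the sources used here; a mean without the outer 2% of values of 500 on every array shows a scaling by the authors. The intensities were then quantile normalized between arrays and converted to log2(value + 16), which understates differences of dim genes. The platform annotation gave 1 symbol to 34958 of 45101 probe sets (34754 updated through gene identifiers), 932 had several and 9211 were unnamed. Probe sets whose mean log2 reached the 30th percentile (signal 22.1) were tested. limma 3.58.1 (R 4.3.3, lmFit and eBayes without trend) was fitted with condition and knockdown (5 residual degrees of freedom), or with 4 group means for mixes, cocultures and interaction (4 degrees). Two-sided p-values were adjusted after Benjamini and Hochberg over 26118 probe sets. A gene was represented by its brightest probe set. The scripts were tested on simulated data. The number of arrays limits the precision.

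Genes were named as follows: with fewer than 10 called, the 10 smallest p in each direction; the 5 largest differences in each direction with an unadjusted p under 0.05 in both conditions; the 5 smallest interaction p; Top1; and up to 3 members of each list. Members of the p53, topoisomerase and sex-linked lists could be named whatever their p. Other genes were named after their values were seen, among them Meg3 (rank below 3 in its list). The comparison and the lists were chosen with earlier results of these data known. Alternatives were a replicate block, median centring, the authors' scaling, no filter or a 50th percentile filter, brightest or mean probe sets, trended and robust variances, pseudocounts of 1 and 64, no condition block, only the groups compared, and leaving out each array.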

Additional observations from a re-analysis of the deposited data

Results flagged for a closer look

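In each knockdown, arrays were looked at for 1 value far from the other 3 (Dixon's criterion at 95%). Of 184 groups of 4 arrays, 178 from 89 named genes and 6 from 3 whole-array measures, 11 had such an array, and chance flags about 1 group in 20.

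In shTop1 coculture replicate 2, Id3, the BMP target, read 168 against 242 to 247 in the other shTop1 arrays, Rian read 5170 against 4270 to 4390, and the interferon-induced gene Bst2 read 1410 against 1140 to 1180. In shTop1 mix replicate 1, the helicase gene Wrn read 264 against 217 to 219, Taf7l read 173 against 184 to 186, and the ribosome biogenesis gene Rrp9 read 1350 against 1550 to 1570. In shTop1 mix replicate 2, Klf5 read 4700 against 4350 to 4390. Among the shp53 arrays, 4930526I15Rik read 96.9 in mix replicate 2 against 106 to 108, and Eogt, a glycosyltransferase gene, read 328 in mix replicate 1 against 298 to 302. In the shp53 cocultures, Ubtfl1 read 36.4 in replicate 1 against 22.6 to 23.8, and Notch2 read 438 in replicate 2 against 523 to 536.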

How the results depend on the processing

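The count of probe sets past the adjusted threshold was 0 under every alternative run, in both conditions, the mixes, the cocultures and the interaction. The smallest adjusted limma p over both conditions ranged from 0.145 (no condition block) to 1 over all alternatives. Testing 1 probe set a gene lowered the counts at an unadjusted limma p under 0.05, since fewer features were tested. With the brightest of 14267 genes they were 678 (both conditions), 577 (mixes), 682 (cocultures) and 614 (interaction). The 604 genes given earlier, also by brightest probe set, came from the fit of all 26118 probe sets. With probe sets averaged per gene (13631 genes) the counts were 694, 577, 699 and 621. The same sign in mixes and cocultures was found for 7510 genes by brightest and 7088 by averaged probe sets, against 13669 probe sets. List members at an unadjusted p under 0.05, 16 in the report, were 26 with averaged probe sets and 31 with trended and robust variances; the cause was not tested.

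Values that turned sign were Mdm2 (0.0106) with median centring and, with probe sets averaged per gene, Top1 (0.1467, weighing the dimmer probe sets like the brightest), Adcy5 (0.0708), Pdgfra (0.0092), Dnajc3 (0.0618) and Ercc1 (0.1615). Leaving out 1 array, the unadjusted counts ran from 1104 to 1626 (both conditions), 971 to 1544 (mixes), 1237 to 2227 (cocultures) and 1044 to 1769 (interaction), and the Top1 difference from -0.12 to -0.09. Of 82 named genes with a difference of at least 0.1 in size, 10 moved by over 1.5 times and 0 turned sign. These genes were named largely by small p-values on the same arrays, so the lack of sign turns supports nothing.

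Same-numbered replicates did not pair: the correlations of their deviations between groups were -0.0097 to 0.058. With the replicate block the counts were 1380 (both conditions), 1171 (mixes), 1490 (cocultures) and 1278 (interaction) at an unadjusted p under 0.05, with 0 called.

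Dim signal limits above all the values of the 3567 genes below a signal of 84.4. Over both conditions the interval was narrower than 0.32 to either side in 6.84% of them. In the mixes alone, to which the size of 0.32 applies, that share was 1.29%, and 62.2% among the brightest genes.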

Other observations

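Genes of the brighter signal range were looked at separately, after their values were seen, because the smallest p-values fell on dim genes. None passed the adjusted limma test. Those named here were picked by p on these same arrays, so a lack of overlap supports nothing. Over all genes, 1.07% had all shTop1 arrays below all shp53 arrays and 1.02% had all above. Pdlim1, an actin-associated adaptor with PDZ and LIM domains, was the brightest. It read 2760 and 2970 in the shTop1 mixes, 3160 and 3150 in the shTop1 cocultures, 3280 and 3540 in the shp53 mixes, and 3730 and 3840 in the shp53 cocultures. All shTop1 arrays lay below all shp53 arrays, with a difference of -0.25 (95% interval -0.42 to -0.09, limma adjusted p = 0.943), and its second probe set gave -0.84. Other genes with all shTop1 arrays below were Prom1, a membrane glycoprotein also known as CD133 (-0.34), the galectin Lgals2 (-0.38), the ciliary protein Cep164 (-0.40) and Eogt (-0.30). The 2 further Eogt probe sets disagreed in sign, at -0.0021 and 0.0322. The second probe set of Cep164 stood at -0.0774 and that of Lgals2 at -0.2069. The mitochondrial magnesium channel Mrs2 had -0.36, but its second probe set stood at 0.0023. Higher in all shTop1 arrays were Cutc, a copper homeostasis gene (0.36), and Tbl3, a ribosome biogenesis factor (0.35), which differed by 0.18 in the mixes and 0.52 in the cocultures. The splicing gene Cwc25 had 0.41, with a second probe set at -0.29.

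The actin-linked genes Tagln (-0.56), Acta2, which encodes smooth muscle actin (-0.23), and Pdlim1 (-0.25) and the YAP targets Ankrd1 (-0.23) and Ccn2 (-0.18) were below 0. They were picked after their values were seen, so the shared sign supports nothing. Of the same Hippo list, Axl stood at 0.30 and 8 of 17 tested genes lay above 0. Among immediate early genes, which encode AP-1 subunits, Fosb had a difference of 0.44 (95% interval -0.02 to 0.90) and Fos 0.26 (95% interval -0.03 to 0.56, and 0.16 without shTop1 coculture replicate 2 or 0.17 without shp53 coculture replicate 2).

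Probe sets without a single gene symbol did not enter the report. Of 5453 that passed the same filter, 0 were called and 380 (6.97%) had an unadjusted limma p under 0.05.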
